A study of Homo sapiens with 6 samples.

Results

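Human chromosome 19 is known for its large clusters of zinc finger (ZNF) genes, and 140 of its ZNF genes were expressed in the pancreatic cancer line YAPC at a mean of at least 1 FPKM (sequenced fragments scaled by transcript length and by library size). They were taken from the 246 entries of chromosome 19 whose symbol is ZNF, digits and an optional letter, so they made up 56.9% of those entries. A further 97 such entries were above 0 and under 1 FPKM, and 9 were listed at 0 in every library. The members were chosen by their mean FPKM over the 6 libraries, so their levels are given as a description. The rule itself did not use the difference between the groups, but it was set with earlier results of these data known. A mean over all libraries can also reach the limit through 1 group alone, and the members concerned are named below.

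The 6 RNA-seq libraries came from YAPC cells carrying rtTA, the doxycycline (Dox) dependent activator, and a pRetroX-Tight-Puro- plasmid. In the 3 iGLI2 libraries the plasmid held Flag-tagged human GLI2, a transcription factor at the end of the Hedgehog pathway, and in the 3 iEV libraries it was empty. Both groups were kept in Dox, 1 μg/ml, in full growth medium for 6 days, so Dox did not differ between them. The 6 libraries include no iGLI2 cells without Dox. GLI2 induction therefore cannot be told apart from any other difference between the cells of each group. A single cell line was used and the sources do not say whether the replicates were separate cultures, so p-values measure only the spread between these libraries.

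The products of these genes are DNA-binding proteins built from tandem C2H2 zinc fingers, each of which folds around a zinc ion held by a pair of cysteines and a pair of histidines. Many also carry a KRAB domain at the amino terminus, which binds TRIM28 (KAP1). TRIM28 in turn brings the histone methyltransferase SETDB1 and heterochromatin proteins, and many KRAB proteins silence transposable elements in this way. The genes multiplied by tandem duplication, so neighbours are often close copies of one another.

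Of the members, 139 were matched to GENCODE release 44 lifted to GRCh37 (ZNF724P was not), and all 139 are annotated there as protein-coding genes. Fingers were found in the translated coding sequence by the spacing of the cysteines and histidines, and 136 members had all of their fingers in 1 coding exon. The median number was 12 over the 138 members with a count, from 1 to 31, and ZNF91 had the 31. ZNF274 was given no count, since its reference transcript could not be read through in GRCh37. The repeat is shown for ZNF136 and ZNF114, a member that rose and a member that fell in iGLI2 cells, as coding DNA on the plus strand of chromosome 19 with the codons of both cysteines and both histidines in capitals. The ZNF136 units lie at chr19:12297701-12297763, chr19:12297785-12297847 and chr19:12297869-12297931 (GRCh37), and each starts 84 bases after the one before it. The ZNF114 units, which are all 3 that the search by spacing found in this gene, lie at chr19:48789797-48789859, chr19:48789881-48789943 and chr19:48790049-48790111 (GRCh37). A finger with another spacing would not have been counted.
ZNF136 finger 1: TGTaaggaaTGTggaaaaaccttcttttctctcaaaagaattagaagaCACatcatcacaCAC
ZNF136 finger 2: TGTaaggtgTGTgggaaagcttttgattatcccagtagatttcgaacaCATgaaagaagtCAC
ZNF136 finger 3: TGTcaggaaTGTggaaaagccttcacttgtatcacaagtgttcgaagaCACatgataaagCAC
ZNF114 finger 1: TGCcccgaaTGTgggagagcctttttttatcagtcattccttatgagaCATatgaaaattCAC
ZNF114 finger 2: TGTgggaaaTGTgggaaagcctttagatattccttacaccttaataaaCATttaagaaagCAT
ZNF114 finger 3: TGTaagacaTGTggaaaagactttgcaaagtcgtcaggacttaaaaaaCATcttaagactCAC

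Duplication leaves stretches that a short read cannot assign to 1 gene. For each member, the share of 50-base stretches of its transcript that also occur in a transcript of another gene was counted, leaving out genes that overlap it. The median share was 1.38%, 67 members were under 1%, and 15 were at 10% or more. ZNF443 had the highest share at 36.1%, mostly with ZNF799, an entry under the limit, and their coding sequences were 96.5% identical over 1929 aligned bases. ZNF587 followed at 24.6%, of which nearly all was shared with ZNF417 (24.2%), another entry under the limit, at 99.1% identity. The closest pair in which both genes were members was ZNF585B and ZNF585A, with 96.1% identity over 2307 bases. Finger 6 of each is shown because the copies differ there by the single base in capitals. The stretches lie on the minus strand at chr19:37677479-37677541 for ZNF585B and chr19:37643841-37643903 for ZNF585A (GRCh37).
ZNF585B finger 6: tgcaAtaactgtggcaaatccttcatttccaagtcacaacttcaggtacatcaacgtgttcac
ZNF585A finger 6: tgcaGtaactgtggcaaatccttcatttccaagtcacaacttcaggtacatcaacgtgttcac

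How reads that match several genes were shared out is not given in the sources used here, so the values of such pairs are uncertain. ZNF585B had 2.11, 2.09 and 2.16 FPKM in iEV and 2.17, 2.28 and 2.20 FPKM in iGLI2, while ZNF585A had 11.1, 12.1 and 9.57 FPKM in iEV and 11.5, 10.7 and 8.70 FPKM in iGLI2. The copies thus differed in level in every library, and the groups overlapped for ZNF585A and were separate for ZNF585B by a narrow margin. In addition, 60 members overlap a gene on the opposite strand, and the TruSeq kit used here does not keep the strand.

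GLI2 itself was read first as a check of the labels. It had 0.466, 0.412 and 0.344 FPKM in iEV and 94.5, 207 and 195 FPKM in iGLI2, so the groups were far apart, with iGLI2 replicate 1 at the lowest induced level. The log2 difference was 6.81 ± 0.30 (SE, limma adjusted p = 0.000162). The epithelial markers KRT19, EPCAM and CDH1 were high in every library, with 521 to 682, 396 to 526 and 51.0 to 72.5 FPKM, while KRT8 and KRT18 were listed at 0 in all 6, which was not read as absence. The markers of leukocytes, endothelium and fibroblasts (PTPRC, PECAM1, COL1A1, COL1A2, COL3A1, DCN, LUM) lay at 2.98 FPKM or less, with COL1A1 the highest. Total FPKM ran from 981344 to 1082687 in iEV and from 803149 to 889559 in iGLI2, so the scale of the values moved with the group.

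Few chromosome 19 ZNF genes passed the test for a difference between iGLI2 and iEV, and those that did moved by less than 1.5-fold. The test was limma on log2(FPKM + 1), run over the 12493 genes that had a mean of 1 FPKM or more, with Benjamini-Hochberg adjustment and a threshold of 0.05. Of the 140 members, 3 were higher in iGLI2 (ZNF136, ZNF558 and ZNF791) and 1 was lower (ZNF114), or 2.86%. Over all genes tested, 21.9% passed, 10.1% higher and 11.8% lower. Among tested genes with a mean under 5 FPKM, where 109 of the members lie, the share was 22.2%, against 0.917% (1 of 109) of the members there. At an unadjusted p under 0.05, 25 members (17.9%) passed, 21 higher and 4 lower, against 35.6% of all genes.

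The count of called members depended on the libraries. Replicate 1 was the highest library in both groups for 59 members (42.1%), against 25.5% of all genes tested, and its part in the result was not tested. With both replicate 1 libraries left out, a setting added after the values were seen, 24 members were higher and 4 were lower, which is 17.1% and 2.86% of the members against 21.3% and 22.5% of all genes. With only iGLI2 replicate 1 left out the counts were 9 and 3, beside 14.8% and 15.2% of all genes. With iEV replicate 2 or iEV replicate 3 left out, no member passed limma's test in either direction (13 and 22 members had an unadjusted p under 0.05), and fewer of all genes passed too, with 4.87% higher and 4.92% lower without iEV replicate 2 and 4.98% and 5.45% without iEV replicate 3. Leaving out iEV replicate 1 gave 2 higher and 1 lower, beside 8.19% and 9.31% of all genes. Leaving out iGLI2 replicate 2 or iGLI2 replicate 3 gave 1 higher and 0 lower each time (18 and 15 members had an unadjusted p under 0.05 in limma), beside 5.09% and 5.77% of all genes and 5.46% and 6.63%.

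The count also moved with the settings of the fit. Without the intensity trend 9 members were higher and 2 lower, beside 10.2% and 11.7% of all genes. Rescaling without small RNA genes gave 11 higher and 2 lower, beside 14.7% and 10.1% of all genes, and a block for the digit in the library codes gave 0 higher and 1 lower (17 and 3 at an unadjusted p under 0.05 in limma), beside 7.70% and 8.98%. Upper quartile scaling and median centring gave 3 higher and 2 lower each, beside 10.6% and 11.6% of all genes and 10.2% and 12.1%. Quantile normalization gave 2 higher and 2 lower, beside 12.2% of all genes lower and 22.2% in either direction. A pseudocount of 0.1 gave 3 and 1, beside 10.2% and 11.9%, and a limit of 2 FPKM gave 2 and 1, beside 9.80% and 12.1%. With no filter on low values, 2.86% of members were higher and 0.714% lower, beside 7.44% and 7.62% of all genes. Only 2 of the members called in the reported fit were called there. At an adjusted p under 0.01, where 4.32% of all genes were higher and 4.44% lower, no member passed limma's test in either direction (25 had an unadjusted p under 0.05).

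ZNF136, a KRAB zinc finger gene with 13 fingers at chr19:12273879-12300686 (GRCh37, plus strand), rose most among the members that passed. It had 1.44, 1.34 and 1.39 FPKM in iEV and 2.08, 2.08 and 2.00 FPKM in iGLI2. The libraries of each group lay close together and the groups did not overlap. Its mean rose from 1.39 ± 0.05 to 2.05 ± 0.05 FPKM (SD, n = 3), a ratio of 1.48, and the log2 difference was 0.35 ± 0.07 (SE, limma adjusted p = 0.0221). Without iEV replicate 2, its adjusted p was 0.0748.

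ZNF558, with a KRAB domain and 9 fingers at chr19:8916846-8942990 (minus strand), had 4.75, 4.70 and 4.81 FPKM in iEV and 5.48, 5.85 and 6.02 FPKM in iGLI2. All iGLI2 libraries were above all iEV libraries, and the rise was small, with a log2 difference of 0.24 ± 0.06 (limma adjusted p = 0.0381). ZNF791, with a KRAB domain and 17 fingers at chr19:12721732-12744654 (plus strand), had 5.56, 5.41 and 5.55 FPKM in iEV and 6.29, 6.61 and 6.72 FPKM in iGLI2, again with no overlap, and its log2 difference was 0.21 ± 0.06 (limma adjusted p = 0.0422). ZNF791 overlaps ZNF490 on the opposite strand, itself a member at a mean of 1.14 FPKM, and ZNF558 overlaps a long noncoding RNA gene, so some reads cannot be told apart. In the fit with no filter on low values, where 7.44% of all genes were higher and 7.62% lower, neither gene passed, with adjusted p-values of 0.0837 for ZNF558 and 0.0924 for ZNF791.

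ZNF114, the KRAB gene whose 3 fingers are shown, at chr19:48773338-48790865 (plus strand), had 6.05, 6.61 and 6.48 FPKM in iEV and 4.91, 4.18 and 4.39 FPKM in iGLI2. Every iGLI2 library was below every iEV library. The mean fell from 6.38 ± 0.30 to 4.50 ± 0.38 FPKM (SD, n = 3), a ratio of 0.705, and the log2 difference was -0.43 ± 0.07 (SE, limma adjusted p = 0.0123). An antisense long noncoding RNA gene, ZNF114-AS1, overlaps it. Its adjusted p was 0.065 without iEV replicate 2, 0.0611 without iEV replicate 3, 0.0583 without iGLI2 replicate 2 and 0.056 without iGLI2 replicate 3.

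**Figure D1:**
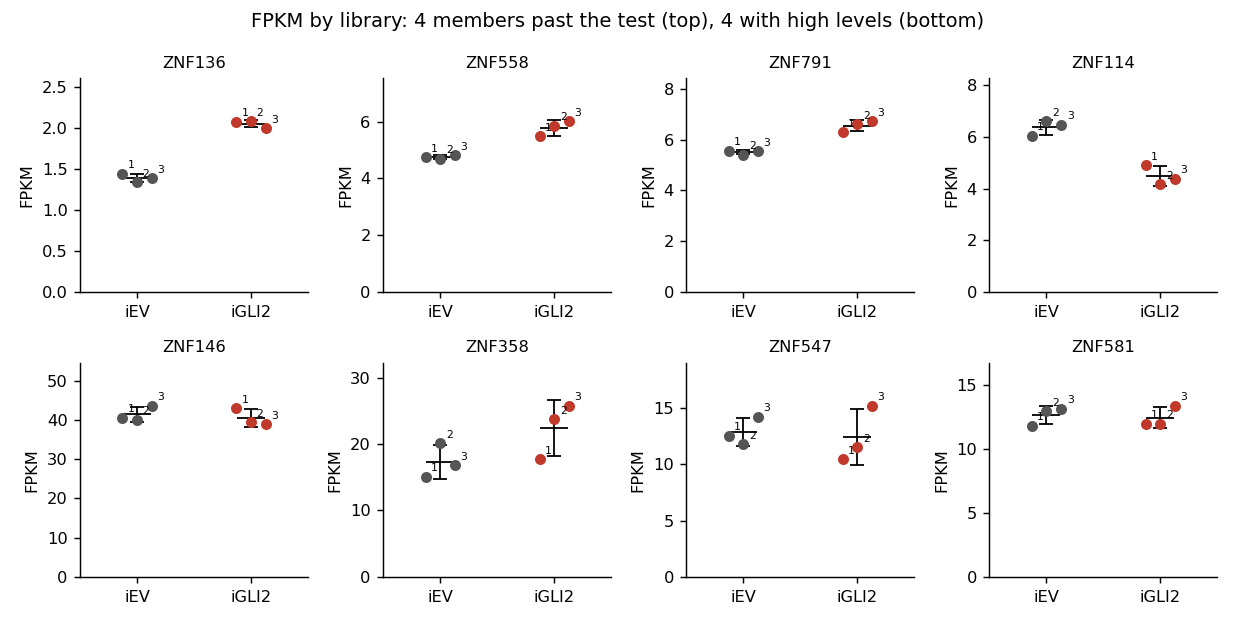
FPKM (vertical axis, from 0) in each of 3 iEV (grey) and 3 iGLI2 (red) libraries for 8 members, with replicate numbers beside the points and the mean ± SD as black bars. The upper 4 genes passed the test and their groups do not overlap, whereas the groups of the lower 4, chosen for high levels, overlap.

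The members with the highest levels did not pass the test. ZNF146, which encodes a protein of zinc fingers with no KRAB domain, was the most abundant at 40.5, 40.1 and 43.6 FPKM in iEV and 43.0, 39.4 and 38.9 FPKM in iGLI2. The groups overlapped and the log2 difference was -0.03, with a 95% interval from -0.20 to 0.13. ZNF358 came second, with 15.1, 20.1 and 16.8 FPKM in iEV and 17.7, 23.7 and 25.8 FPKM in iGLI2, and its log2 difference of 0.35 ± 0.17 did not pass (limma adjusted p = 0.195). The libraries of each group were spread widely for this gene, and without iGLI2 replicate 1 its adjusted p was 0.0431. ZNF547, ZNF581, ZNF507 and ZNF302 had means of 12.6, 12.6, 12.4 and 11.4 FPKM, and none passed, with log2 differences of -0.06, -0.02, 0.01 and 0.06. Of these 6 genes, 4 had no KRAB A box (ZNF547 and ZNF302 had one). Levels fell off quickly below them, with 8 members at 10 FPKM or more, 31 at 5 or more and 57 under 2, and a median of 2.17 FPKM against 11.4 FPKM over all genes tested.

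At the limit of the rule, ZNF283, ZNF432 and ZNF234 were just inside, with means of 1.00, 1.01 and 1.08 FPKM, and ZNF93, ZNF417 and ZNF333 just outside, with 0.993, 0.967 and 0.950 FPKM. A mean of at least 1 FPKM in only 1 group could bring a gene in. The mean was under 1 FPKM in iEV for 5 members (ZNF345, ZNF606, ZNF432, ZNF571 and ZNF888), which entered through their iGLI2 values. It was under 1 in iGLI2 for 1 (ZNF283), and the other 134 were at 1 or more in both groups. Among those 134 the median log2 difference was 0.087 and the highest was 0.418, with 3 called higher and 1 lower. No member was listed at 0 in any library.

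**Figure D2:**
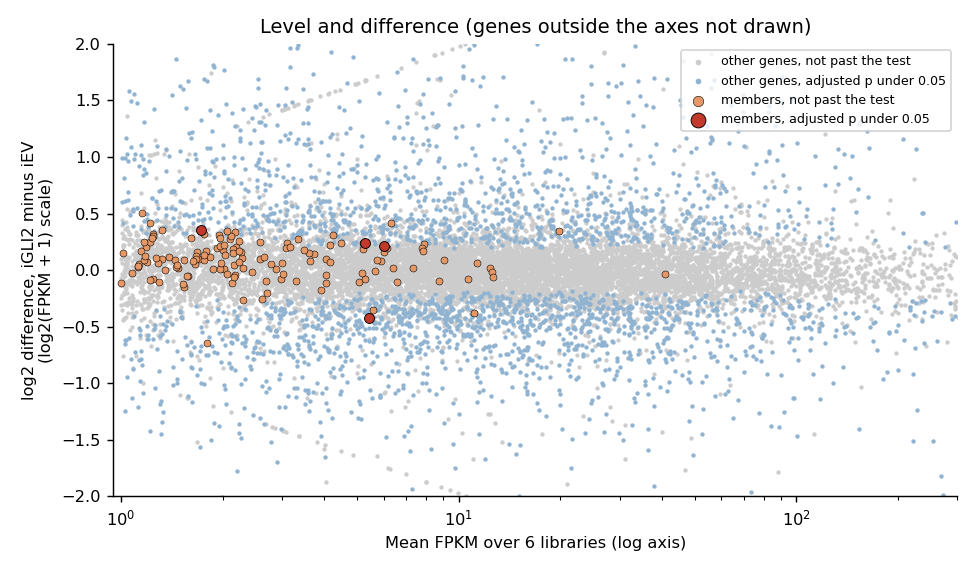
Log2 difference, iGLI2 minus iEV, against the mean FPKM over 6 libraries (log axis) for members (orange, and red where the adjusted p is under 0.05) and other tested genes (grey, and blue where the adjusted p is under 0.05). The members lie between -0.65 and 0.50, mostly under 5 FPKM.

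The differences of the members were small but lay more often above 0 than below it. The median log2 difference was 0.090, against -0.015 over all genes tested, and 102 of 140 members (72.9%) were above 0, against 47.8% of all genes. The differences also moved with level. Among tested genes under 5 FPKM the median was 0.030 with 54.3% above 0, against 0.099 with 77.1% in the 109 members there, while the 31 members at 5 FPKM or more had a median of 0.018 with 58.1% above 0, against -0.030 with 45.4% of all genes at that level. The ratio of mean FPKM had a median of 1.10 and ran from 0.499 to 1.91, with 4 members at 1.5 or more and 1 at 1/1.5 or less. Of these 4, ZNF345, ZNF606 and ZNF571 had an iEV mean under 1 FPKM and reached the limit only through iGLI2, so their high ratios are partly set by the rule. The share of all genes at such ratios was not counted. Of the members, 103 (73.6%) had a 95% interval that lay within -0.5 to 0.5, against 56.1% of all genes. That share was not taken for genes under 5 FPKM, and the log2(FPKM + 1) scale narrows the differences of low genes, so the comparison is not at a like level. In 35 of 140 members all iGLI2 libraries were above all iEV libraries, and in 7 of 140 they were below. Over all genes tested the groups were apart in 5251 of 12493 (42.0%), with 2399 higher (19.2%) and 2852 lower (22.8%). A smaller share of members than of all genes was thus apart. The larger share of members apart and higher is not set against genes of a like level there. Among tested genes under 5 FPKM, 23.1% were non-overlapping and higher, beside 30 of the 109 members at that level. Among the 134 members at 1 FPKM or more in both groups, 31 were apart and higher and 7 apart and lower. Whether these shares differ was not tested.

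The shift differed between libraries. Taken against each gene's mean over the 6 libraries, the members' median in log2(FPKM + 1) was -0.008, -0.084 and -0.053 in iEV and 0.117, 0.037 and -0.006 in iGLI2. Library iGLI2 replicate 1 was thus the highest and iGLI2 replicate 3 came close to iEV replicate 1. The medians over all genes tested were 0.000, 0.015 and 0.006 in iEV and -0.047, 0.008 and 0.009 in iGLI2, so the library highest for the members was the lowest there. Without iGLI2 replicate 1 the member median was 0.054 and 91 members were above 0. After quantile normalization it was 0.044, with 85 above 0, and after rescaling without small RNA genes it was 0.146 while the median of all genes moved to 0.055.

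**Figure D3:**
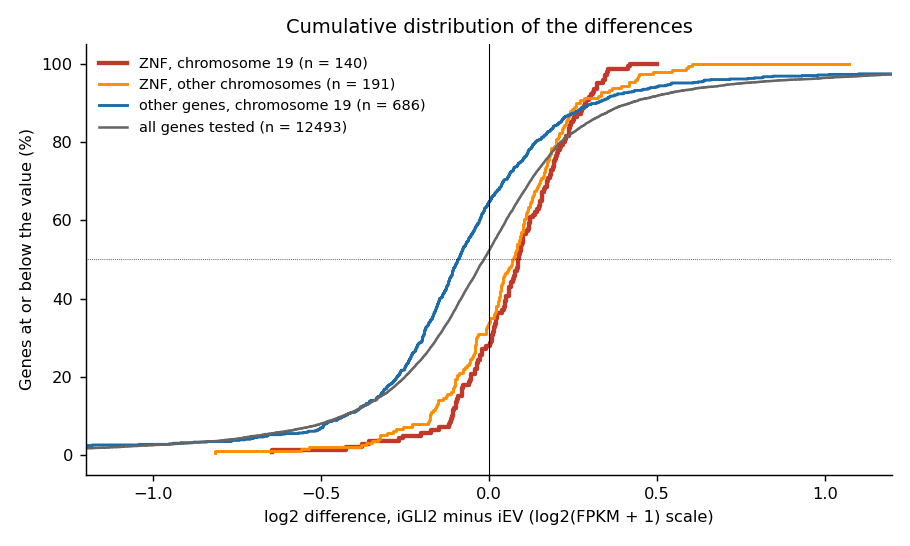
Cumulative share of genes (vertical axis, %) at or below each log2 difference, iGLI2 minus iEV, for the 140 members, 191 ZNF genes of the other chromosomes, 686 other tested genes of chromosome 19 and all 12493 genes tested. Both ZNF curves lie to the right of 0 at 50%, with medians of 0.090 and 0.074, and the other genes of chromosome 19 lie to the left at -0.090.

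ZNF genes of the other chromosomes also lay above 0 in the median, while the other genes of chromosome 19 lay below it. The 191 ZNF genes of the other chromosomes that reached the same limit had a median log2 difference of 0.074, 67.0% were above 0, and 15 were higher and 5 lower (10.5% called). The 686 other tested genes of chromosome 19 had a median of -0.090, 35.7% were above 0, and 40 were higher and 62 lower (14.9% called). Whether these medians differ was not tested, and without iGLI2 replicate 1 the median of the other chromosome 19 genes was 0.019. Of 58 tested genes that lie inside the ZNF clusters and are no zinc finger gene, 4 were higher and 1 was lower, with a median of -0.007. Only 4 genes of chromosome 19 with another zinc finger name (ZFP, ZSCAN, ZBTB and the like) were tested, of which 1 was lower.

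Along the chromosome, entries were placed in 1 cluster until a gap of more than 1 Mb, which gave 7 clusters with at least 5 members and 13 scattered members. Numbered from the short arm to the end of the long arm, they hold 11, 11, 15, 16, 12, 22 and 40 members. The share of a cluster's ZNF entries that reached 1 FPKM was highest in the first (78.6%, 11 of 14) and lowest in the third (41.7%, 15 of 36), which flanks the centromere. The genes with the highest mean in each were ZNF358, ZNF627, ZNF254, ZNF146, ZNF226, ZNF761 and ZNF547. Their log2 differences were 0.35, 0.23, 0.08, -0.03, 0.09, -0.01 and -0.06, none past the test.

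The median log2 difference was above 0 in every cluster. It was 0.111 in cluster 1, 0.084 in cluster 2, 0.051 in cluster 3, 0.166 in cluster 4, 0.031 in cluster 5, 0.096 in cluster 6 and 0.120 in cluster 7, and 0.015 in the scattered members. Cluster 4, at 36.7 to 38.3 Mb of the long arm (hg19), had the highest median and the member with the highest difference, ZNF345. Without both replicate 1 libraries the medians of clusters 2 and 5 were 0.004 and -0.029. The members that passed were 1 of cluster 1 (ZNF558), 2 of cluster 2 (ZNF136 and ZNF791) and 1 scattered member (ZNF114), so none of the 105 members of clusters 3 to 7 passed limma's test (19 had an unadjusted p under 0.05). Neighbouring members not split by a gap of more than 1 Mb, those among the scattered members included, formed 126 pairs. Of these, 75 (59.5%) had differences of the same sign, and the share of members above 0 alone gives 60.4%.

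**Figure D4:**
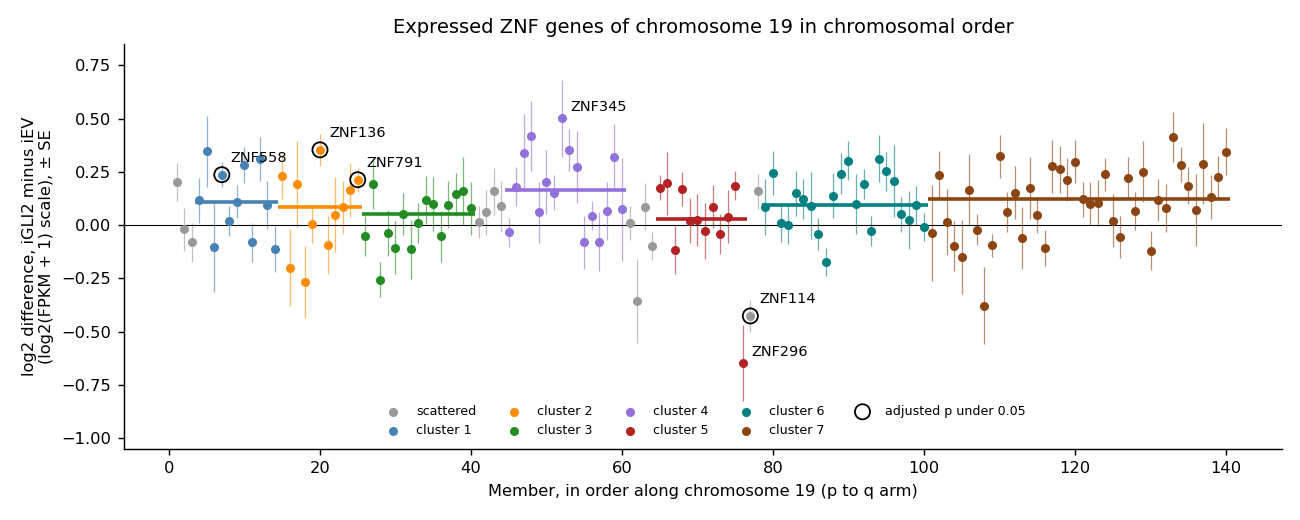
Log2 difference, iGLI2 minus iEV (vertical axis, log2(FPKM + 1) scale, bars ± SE), of the 140 members in their order along chromosome 19, coloured by cluster with a line at the median of each cluster. Members past the test are circled: ZNF558, ZNF136 and ZNF791 above 0 and ZNF114 below, with cluster medians from 0.031 to 0.166.

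Some members with wide differences did not pass, and the ones named here were chosen after their values were seen. ZNF345 had the highest difference, with 1.13, 0.812 and 0.425 FPKM in iEV and 1.88, 1.38 and 1.28 FPKM in iGLI2. Its iEV mean was 0.790 FPKM, so it reached the limit of 1 FPKM only through iGLI2. Its groups did not overlap but the iEV libraries were spread widely, and the log2 difference of 0.50 ± 0.18 had a limma adjusted p of 0.105. ZNF260, a KRAB-less zinc finger gene of the same cluster, had 6.05, 5.01 and 4.57 FPKM in iEV and 9.35, 6.42 and 6.34 FPKM in iGLI2. Replicate 1 was the highest in both groups here too, and the adjusted p was 0.128. ZNF606 had 1.10, 0.773 and 0.829 FPKM in iEV and 1.77, 1.47 and 1.36 FPKM in iGLI2, with a log2 difference of 0.41 ± 0.12 and a limma adjusted p of 0.0525. Its iEV mean, 0.902 FPKM, was also under the limit. In all, 15 members had an adjusted p from 0.05 to under 0.1, of which 13 were above 0. The share of all genes in that range was not counted, so the number is not read as a trend of the members. At an unadjusted p under 0.05 in limma, 17.9% of members passed, against 35.6% of all genes.

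ZNF296, which encodes a zinc finger protein without a KRAB domain, had the lowest difference of all members. It had 2.55, 2.66 and 2.01 FPKM in iEV and 0.686, 1.49 and 1.43 FPKM in iGLI2, so the groups were separate and iGLI2 replicate 1 was the lowest. The log2 difference was -0.65 ± 0.18, with a 95% interval from -1.09 to -0.21 and a limma adjusted p of 0.051. Under all 4 other scalings between libraries it passed, with limma adjusted p-values of 0.0296 to 0.0443. Counting every alternative setting in which it was tested, it passed in only 7 of 16. Across these its limma adjusted p reached 0.16, and its log2 difference ran from -1.005 to -0.433. ZNF787, at 10.2, 13.8 and 14.0 FPKM in iEV and 7.33, 10.3 and 11.0 FPKM in iGLI2, overlapped between the groups and did not pass (adjusted p = 0.194).

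A KRAB A box, searched by a short pattern of residues before the first finger, was found in 112 of the 139 matched members (80.6%) and in 88 of the 97 matched entries under 1 FPKM (90.7%). Members with the box had a median level of 2.11 FPKM and those without it 4.49 FPKM. The median log2 difference was 0.091 in the 112 with the box and 0.087 in the 27 without, and 76.8% and 59.3% were above 0. A short pattern can miss a box, so some of the 27 may carry one. All 4 members that passed had the box. The median number of fingers was 12 in members and 14 in the entries under 1 FPKM. Members under 1% in shared 50-base stretches had a median log2 difference of 0.101, and the 15 members at 10% or more had 0.119. The 79 members with no overlapping gene on the opposite strand had a median of 0.084 and 1 call, ZNF136, and the 60 with one had 0.110 and the other 3 calls, 2 higher (ZNF558 and ZNF791) and 1 lower (ZNF114).

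Promoters were taken from RefSeq (GRCh38.p14), from 250 bases before to 50 after the start, for the 125 members with an entry. They had a median of 22 CpG dinucleotides, against 14 over all 27305 promoters, 18 in the chromosome 19 ZNF genes under 1 FPKM and 24 in ZNF genes of other chromosomes. The motif GACCACCCA, bound by GLI proteins, was in none of the 125 on either strand and in 0.249% of all promoters, which says only that these letters are not in these windows. The 8-base words were ranked by how much more often members held them than all promoters did, so their excess is a description. Only 3 of the high-ranked words are followed below, and others separated the ZNF sets more. GGGCGGGA and GAACTACA were in 25.6% and 16% of member promoters. Their shares were 11% and 4.88% in the chromosome 19 ZNF genes under 1 FPKM, and 7.01% and 5.61% in ZNF genes of other chromosomes. AGGCCCCG went the other way, with 22.4% of members and 25.6% of those under 1 FPKM. ACTTCCGG, an ETS-type word, was in 24.0% of member promoters and 4.44% of all, and in 17.1% of the chromosome 19 ZNF genes under 1 FPKM and 14.0% of the ZNF genes of other chromosomes. TCCAATCA and CCAATCAG, overlapping words that hold the CCAAT box, were in 19.2% and 21.6% against 1.61% and 4.16% of all. They were in higher shares, 28% and 30.5%, of the chromosome 19 ZNF genes under 1 FPKM, and in 8.41% and 12.6% of the ZNF genes of other chromosomes, so these words are not particular to the expressed members. The 250 bases before the start are shown for the 3 members that rose, with these 3 words on either strand in capitals. They are chr19:12162846-12163095 (plus strand) for ZNF136, chr19:8832305-8832554 (minus strand) for ZNF558 and chr19:12610670-12610919 (plus strand) for ZNF791, in GRCh38.p14.
ZNF136 promoter: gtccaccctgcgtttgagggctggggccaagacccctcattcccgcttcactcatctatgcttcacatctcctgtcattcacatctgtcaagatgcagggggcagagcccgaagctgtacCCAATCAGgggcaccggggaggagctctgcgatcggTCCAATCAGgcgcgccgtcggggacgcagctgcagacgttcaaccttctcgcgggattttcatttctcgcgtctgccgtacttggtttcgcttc
ZNF558 promoter: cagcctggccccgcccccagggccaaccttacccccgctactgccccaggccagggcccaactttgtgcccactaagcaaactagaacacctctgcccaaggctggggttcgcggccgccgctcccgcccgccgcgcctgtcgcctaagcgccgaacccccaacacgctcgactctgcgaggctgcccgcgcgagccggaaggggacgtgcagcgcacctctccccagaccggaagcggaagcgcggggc
ZNF791 promoter: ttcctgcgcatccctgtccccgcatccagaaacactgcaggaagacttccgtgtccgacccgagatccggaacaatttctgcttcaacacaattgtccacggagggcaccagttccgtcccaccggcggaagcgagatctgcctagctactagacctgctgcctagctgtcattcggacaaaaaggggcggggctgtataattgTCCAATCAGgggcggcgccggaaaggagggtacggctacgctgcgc

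ZNF136 and ZNF791 thus hold the CCAAT words before their starts, and none of the 3 words is in those letters of ZNF558. They do hold CCGGAAGC, a ranked word that was not marked. It was in 21.6% of member promoters and 3.9% of all promoters. Its share was 20.7% in the chromosome 19 ZNF genes under 1 FPKM and 13.6% in ZNF genes of other chromosomes. ZNF114 is named only.

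The partners of KRAB proteins were read from a list of 41 corepressor and heterochromatin genes, all of which were tested. The shared corepressor TRIM28 had 91.7, 101 and 101 FPKM in iEV and 76.0, 102 and 106 FPKM in iGLI2, and SETDB1 had 6.25, 6.69 and 6.88 FPKM in iEV and 6.10, 7.66 and 7.45 FPKM in iGLI2. Both overlapped between the groups and neither passed (limma adjusted p = 0.776 and 0.584). Of the list, 4 genes were higher and 3 were lower (17.1% called), against 21.9% of all genes tested, with a median log2 difference of 0.025, so the list was not called more often than genes in general. HDAC2, a histone deacetylase, rose by 0.42 ± 0.07 on the log2 scale, from 30.3, 29.9 and 30.2 FPKM to 44.2, 39.7 and 38.1 FPKM. FAM208A, a subunit of the HUSH silencing complex, and DNMT3B, a DNA methyltransferase, rose by 0.28 and 0.41, while MPHOSPH8, another HUSH subunit, fell by 0.36. TRIM24, a relative of TRIM28, and MTA2, a subunit of the NuRD deacetylase complex, fell by 0.38 and 0.22.

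The ATP-dependent remodeller ATRX, the other called gene of the list, rose by 0.25 (limma adjusted p = 0.0261). The limma adjusted p-values of the 6 genes named before it were between 0.0113 and 0.0327. Each of the 6 had an adjusted p above 0.05 in at least 2 of the fits that left out a single library.

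**Figure D5:**
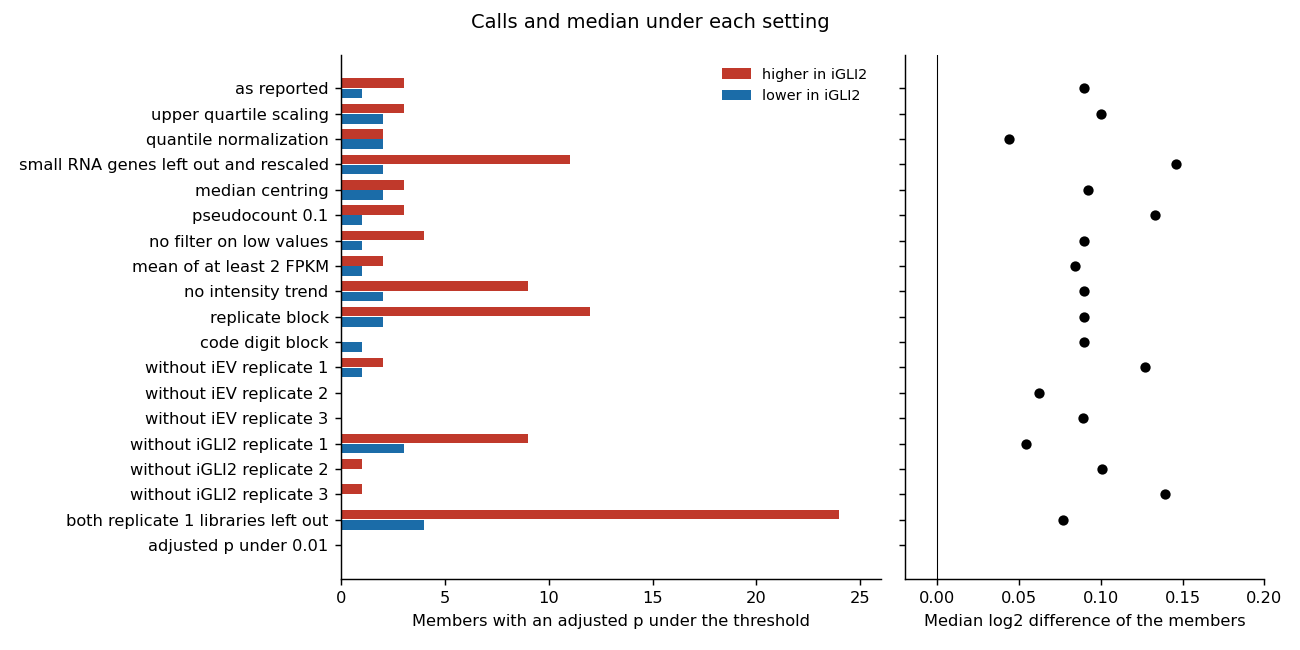
Left, number of members higher (red) and lower (blue) in iGLI2 under the fit as reported and each alternative; right, median log2 difference of the members, which was not computed for the stricter threshold. The counts run from 0 to 24 higher and from 0 to 4 lower, and the medians from 0.044 to 0.146.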

How the data were processed

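The deposited FPKM values were made by the authors: Trimmomatic trimmed the reads, and the submitters' processing notes name TopHat2, Cuffdiff 2.1.1 and the build hg19. The gene annotation is not given in the sources used here. The table names no unit, and FPKM was inferred from its values, so depth is unknown and no counting error is stated. Of 27024 entries, those outside the primary chromosomes and lower duplicates of a name were left out (25442 kept). The test was limma 3.58.1 on log2(FPKM + 1) (R 4.3.3, intensity trend, two-sided, condition only, checked on simulated data), and fold changes on this scale understate those of low genes. Biopython 1.88 was used for sequences. Genes named are the members past the test, the 6 with the highest mean, the highest of each cluster, those nearest the limit, GLI2, TRIM28, SETDB1 and the called corepressor genes, and others are said to be chosen later. The members and lists were chosen with earlier results of these data known. Alternatives covered scaling, pseudocount, filters, moderation, blocks, threshold and left-out libraries.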

Additional observations from a re-analysis of the deposited data

How the results depend on the processing

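The median log2 difference of the members stayed above 0 in all 17 settings beside the reported one for which it was computed, the one added later included, between 0.044 and 0.146, and GLI2 passed in each of them. The number of members higher in iGLI2 was 11 when small RNA genes were left out and libraries rescaled, 9 without the intensity trend, 24 with both replicate 1 libraries left out and 0 at an adjusted p under 0.01, where the shares of all genes higher were 14.7%, 10.2%, 21.3% and 4.32%. The number lower was 2 under upper quartile scaling, quantile normalization, median centring, small RNA rescaling and without the trend, 4 with both replicate 1 libraries left out and 0 at an adjusted p under 0.01. Leaving out each library in turn gave 0 to 9 higher and 0 to 3 lower, while the shares of all genes ran from 4.87% to 14.8% higher and from 4.92% to 15.2% lower, and none of the 4 called members was called under every alternative. The cause of these moves was not tested.

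The replicate numbers were checked for pairing. Deviations from the group means of same-numbered libraries correlated at 0.204, 0.0919 and 0.0276 over genes, and iEV replicate 2 correlated better with iGLI2 replicate 3 (0.117), so the numbers were not taken to pair the libraries, although both replicate 1 libraries correlated best with each other. With the replicate block 12 members were higher and 2 lower, against 14.5% and 17.0% of all genes. With a block for the code's digit 0 were higher and 1 lower (17 and 3 at an unadjusted p under 0.05 in limma).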

Other observations

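Several chromosome 19 ZNF entries under 1 FPKM passed the test when no filter on low values was used. In that limma fit over 20035 genes, 6 of the 97 entries were higher in iGLI2 and 0 lower at an adjusted p under 0.05, against 7.44% and 7.62% of all genes, and 57 were above 0. The genes named here were chosen after their values were seen. ZNF583 had 0.146, 0.0733 and 0.116 FPKM in iEV and 0.648, 0.486 and 0.424 FPKM in iGLI2, with no overlap between the groups (adjusted p = 0.00778). ZNF542P had 0.488, 0.231 and 0.284 FPKM in iEV and 0.974, 0.961 and 0.905 FPKM in iGLI2, and its groups were also apart (adjusted p = 0.00885). ZNF582 was called as well, and all 3 lie in cluster 7. The other called entries were ZNF850 and ZNF570 in cluster 4 and ZNF738 in cluster 3. The values of all 6 were low in both groups, and at such levels 1 FPKM added before taking the log2 hides most of a ratio.

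Entries that merge ZNF names or name a read-through or antisense transcript were outside the rule and number 14 on chromosome 19. ZNF816,ZNF816-ZNF321P had 2.52, 2.25 and 1.99 FPKM in iEV and 3.68, 3.11 and 3.38 FPKM in iGLI2, and passed with a log2 difference of 0.43 (limma adjusted p = 0.0244). ZNF177,ZNF559,ZNF559-ZNF177 also passed, with 0.33 (limma adjusted p = 0.0352). ECSIT,ZNF653, an entry that joins a ZNF gene with ECSIT, passed in the other direction and fell from 24.96, 29.6 and 32.3 FPKM in iEV to 16.4, 21.3 and 20.7 FPKM in iGLI2, a log2 difference of -0.55 (limma adjusted p = 0.0361).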
